A study of Mus musculus with 19 samples.

Results

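The M-band proteins examined here are the 3 myomesin genes Myom1, Myom2 and Myom3 and the cytoskeletal adaptor gene Obsl1. The 4 genes were chosen from measured values, the signals of this same comparison of HSALR with wild type, and their probe sets were taken as all those annotated to only 1 of these symbols, which gave 11 of the 45037 probe sets that are not controls (4 of 18193 named genes). Of these 11, 8 passed the filter on low values: the Myom1 probe set, 3 of 4 for Myom2, the Myom3 probe set and 3 of 5 for Obsl1. The tissue was EDL (extensor digitorum longus), a leg muscle rich in fast fibres, from FVB mice aged 19 weeks. There were 9 wild-type samples and 10 samples from the transgenic HSALR line 20 b, each on 1 Affymetrix array. HSALR mice, which serve as a model of myotonic dystrophy, carry a human skeletal actin gene with a long CTG repeat, driven by the skeletal actin promoter; all HSALR samples come from this 1 line. The labels do not say whether the samples came from separate animals, so errors and p-values measure only how these samples vary, possibly for technical reasons. The members were proposed with results of the comparison of HSALR with wild type known, so their values in that comparison are given as a description and no test of them is drawn on.

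The M-band is the line in the middle of the sarcomere where neighbouring myosin filaments are cross-linked and where titin ends meet. Myomesin, the product of Myom1, is the general cross-linker and is found in all striated muscle, whereas M-protein, from Myom2, is typical of fast fibres and heart, and myomesin-3, from Myom3, of fibres with intermediate or slow properties. The product of Obsl1 binds both titin and myomesin, and outside the sarcomere it belongs to the 3M complex with the cullin Cul7. Myom1 is also known as a gene whose alternative splicing is disturbed in myotonic dystrophy. Where its probes lie relative to the alternatively spliced parts was not examined, so its splice forms are not told apart here.

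Promoter windows were available for 3 of the 4 genes, Myom1, Myom3 and Obsl1, from RefSeq on GRCm38.p6, each with 250 bases before and 50 after the start site that the table uses. The windows of Myom3 and Myom1 are printed because the log2 folds of these 2 myomesin genes below had opposite signs, although that of Myom1 was not called as deposited. The longest run that the 2 windows have in common, GCTGCTATATTTA, is in capitals. The Myom3 window lies at chr4:135759465-135759764 on the plus strand and the Myom1 window at chr17:71019307-71019606 on the plus strand.
Myom3: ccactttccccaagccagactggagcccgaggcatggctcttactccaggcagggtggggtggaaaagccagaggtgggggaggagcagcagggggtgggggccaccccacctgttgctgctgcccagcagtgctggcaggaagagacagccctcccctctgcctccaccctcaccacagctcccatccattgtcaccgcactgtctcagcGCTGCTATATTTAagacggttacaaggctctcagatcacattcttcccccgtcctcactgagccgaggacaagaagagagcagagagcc
Myom1: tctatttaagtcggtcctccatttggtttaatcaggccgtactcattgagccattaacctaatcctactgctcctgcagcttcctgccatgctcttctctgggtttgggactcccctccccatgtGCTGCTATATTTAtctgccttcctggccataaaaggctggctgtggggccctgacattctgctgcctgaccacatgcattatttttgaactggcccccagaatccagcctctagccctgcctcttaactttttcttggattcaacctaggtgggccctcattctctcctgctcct
The shared run is 13 bases long and begins 39 bases before the start site in Myom3 and 125 bases before it in Myom1. Searched on both strands of all 32851 promoter windows of the same length, it was present in these 2 windows alone, and its inner part CTATATTTA in 0.195% of windows. The run was picked as the longest string that these 2 windows share, so its presence in both was fixed in advance. No other pair of windows was compared in this way, so nothing is read from its absence elsewhere. In Myom3 the run overlaps a match to the binding motif of the MEF2 muscle transcription factors, which reads on both strands and is held by 3.19% of windows; the Myom1 and Obsl1 windows had no match. The E-box CANNTG, the site of myogenic factors, occurred 3 times in the Myom1 window, 1 time in that of Myom3 and 4 times in that of Obsl1, and is held by 72.3% of windows. These matches describe letters in a window and not binding.

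Across the series, the median signal of the arrays ranged from 39.7 to 71.9, so array brightness differed, and values are therefore given as deposited and after quantile normalization. HSALR replicates 9 and 10 resembled each other most (Spearman correlation 0.978; the other samples reached at most 0.953 to 0.969 with any sample), and results are also given without them. The mean log2 3'/5' ratio of the actin and Gapdh control probe sets, a sign of RNA quality, differed by -0.047 between HSALR and wild type (exact permutation p = 0.0295, 2-sided). Of 8 genes that define muscle tissue, such as the actin gene Acta1 and the muscle creatine kinase gene Ckm, all 8 were tested and 0 differed in limma at a false discovery rate of 0.05, with 0 also at an unadjusted p under 0.05 and 1 lower after quantile normalization. Their summed signal was 92962 to 107018 in wild type and 87703 to 104889 in HSALR. All but Des read near the highest signals of an array, which were 13979 to 17163, and this limits what change can be seen. Wild-type mean log2 signals were 13.57 for Acta1 and 13.56 for Ckm. In bulk tissue, fewer cells of a type and less RNA per cell cannot be told apart.

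Among the myomesins, Myom3 had the largest difference between HSALR and wild-type muscle, Myom2 a smaller one in the same direction, and Myom1 none or a small one in the opposite direction. The log2 fold of Myom3 was 0.67 ± 0.14 (SE, n = 10 against 9), a 1.60-fold higher level. Those of the 3 brighter Myom2 probe sets lay between 0.17 ± 0.08 and 0.33 ± 0.09, and that of Myom1 was -0.12 ± 0.09. Log2 folds here are differences of mean log2(signal + 16), so they understate changes of dim genes. In the limma fit over 22519 probe sets, adjusted by Benjamini-Hochberg, 3 of the 8 tested member probe sets were called, all higher in HSALR: that of Myom3 and 2 of Myom2. Of all tested probe sets 5.06% of probe sets were called, 2.86% higher and 2.2% lower; since the members were proposed from this contrast, nothing is read from the comparison of these shares. The median log2 fold of the 8 tested member probe sets was 0.16, beside 0.04 over all tested probe sets.

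Myom3, the myomesin of intermediate and slow fibres, was read by a single probe set, 1439708_at. Its signal in wild type was 284, 262, 277, 311, 307, 231, 210, 233 and 264 in replicates 1 to 9. In HSALR it was 415, 513, 717, 425, 405, 430, 239, 578, 345 and 379 in replicates 1 to 10. Of the HSALR samples, 9 of 10 exceeded the wild-type maximum, and HSALR replicate 7, at 239, lay within the wild-type range. The mean log2 signal was 8.12 ± 0.18 (SD, n = 9) for wild-type samples and 8.79 ± 0.41 (SD, n = 10) for those of HSALR mice. The HSALR samples were also more spread, with a coefficient of variation of the signal of 29.6% against 13.1% in wild type, a difference in spread that was not tested. A wider HSALR spread was not particular to Myom3. It was also seen for Myom1 (13.2% against 6.61%) and Obsl1 1457121_at (19.3% against 10.4%), though not for Myom2 1457435_x_at and 1438175_x_at. After quantile normalization the log2 fold was 0.62 ± 0.14, with 7 of 10 HSALR samples above all of wild type, and without HSALR replicates 9 and 10 it was 0.73 in both scalings. Over the other settings and the fits without 1 sample, its log2 fold ranged from 0.59 to 0.76, a range that uses the same samples from which the gene was chosen.

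**Figure D1:**
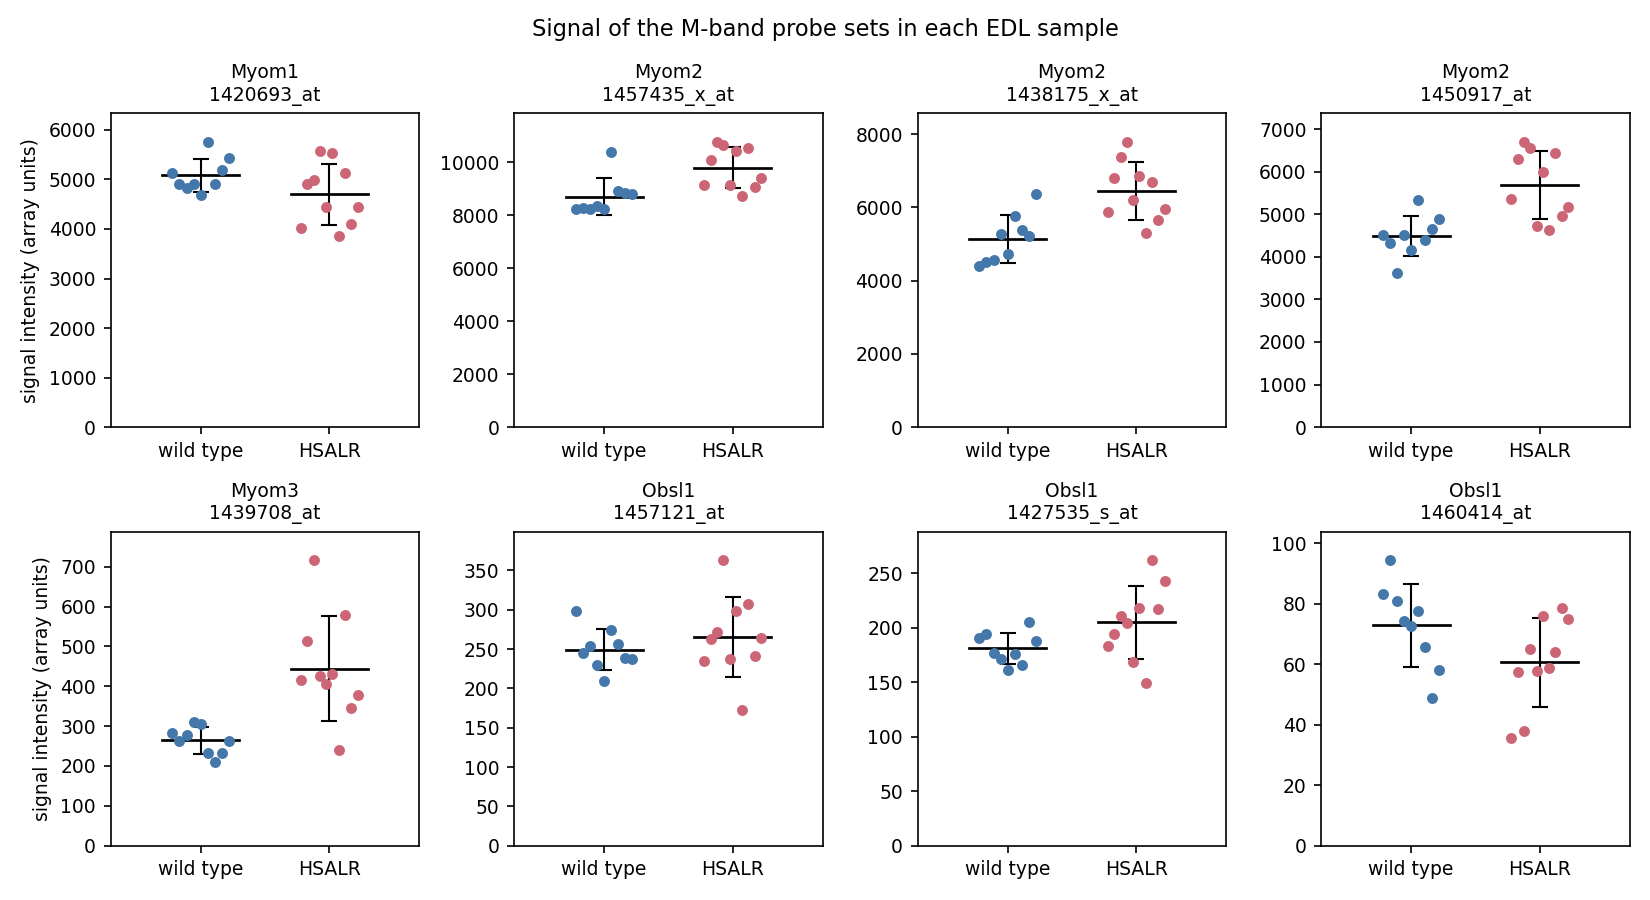
Signal intensity (array units, linear axis from 0) of the 8 M-band probe sets that passed the filter, in 9 wild-type (blue) and 10 HSALR (red) samples; points are samples, lines are means and bars are ±1 SD. For Myom3, 9 of 10 HSALR points lie above all wild-type points, whereas the groups overlap more widely in the Myom1 and Obsl1 panels.

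Myom2, which encodes M-protein, the M-band protein of fast fibres, had 4 probe sets. Of these, 1450917_at and the near-background 1438372_at carry no suffix for shared probes. The wild-type signals of 1450917_at were 4506, 4315, 3618, 4508, 4160, 5335, 4406, 4656 and 4881 in replicates 1 to 9, and its HSALR signals 5369, 6292, 6706, 6558, 4735, 5983, 4623, 6435, 4947 and 5176 in replicates 1 to 10. All HSALR signals exceeded those of 6 of 9 wild-type samples, and 6 of 10 exceeded the wild-type maximum. The log2 fold was 0.33 ± 0.09, a 1.26-fold higher level. The probe set 1438175_x_at, whose suffix marks probes that may also bind other transcripts, ranged from 4404 to 6379 (median 5231) in wild type and from 5314 to 7801 (median 6451) in HSALR, with a log2 fold of 0.33 ± 0.09. The brightest, 1457435_x_at, ranged from 8219 to 10376 (median 8357) and from 8715 to 10777 (median 9748), and its log2 fold was 0.17 ± 0.08 and was not called. Its signals approach the highest of each array, which were 13979 to 17163.

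The brighter Myom2 probe sets moved together across samples, with correlations of 0.73 to 0.84 between pairs of them after the group means were taken off (quantile-normalized values, 19 samples), so they are not separate evidence. The fourth, 1438372_at, was near background, from 7.17 to 44.5 in wild type and from 10.9 to 31.3 in HSALR, and is outside the tested set. The calls of Myom2 were close to the threshold. For both called probe sets they were lost without a filter and when the 3'/5' ratio entered the fit (log2 folds of 0.27 for 1438175_x_at and 0.28 for 1450917_at with the latter), and in 12 of 19 fits without 1 sample. Those fits left out wild-type replicates 1, 2, 3, 4, 5, 7 or 8 or HSALR replicates 2, 3, 4, 6 or 8, and the log2 folds in all 19 such fits were 0.30 to 0.37. After quantile normalization 1450917_at was still called (log2 fold 0.23 ± 0.07), whereas 1438175_x_at was not (0.24 ± 0.08), nor with arrays centred on their median (0.28). Without HSALR replicates 9 and 10 both were called, with log2 folds of 0.37 for each as deposited. After quantile normalization without them, 1438175_x_at (0.29), 1450917_at (0.30) and also 1457435_x_at (0.15) were called.

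Myom1, the general myomesin of striated muscle, was read by 1420693_at. Its signals were 5125, 4905, 4827, 4911, 4694, 5765, 4912, 5184 and 5429 in wild-type replicates 1 to 9 and 4016, 4910, 4997, 5579, 4437, 5526, 3851, 5121, 4100 and 4445 in HSALR replicates 1 to 10. No HSALR sample exceeded the wild-type maximum, 5 of 10 lay below the wild-type minimum and the other samples overlapped. Mean log2 signals were 12.31 ± 0.09 (SD, n = 9) and 12.19 ± 0.19 (SD, n = 10), and the difference was not called. After quantile normalization 9 of 10 HSALR samples lay below every wild-type sample, with a log2 fold of -0.21 ± 0.07 that was called. It was -0.15 and not called when HSALR replicates 9 and 10, which had the lowest normalized Myom1 values, were also left out, and it was not called with arrays centred on their median (-0.17). In that normalization 3 member probe sets were called, of which 2 were also called as deposited, beside 6.47% of probe sets called higher and 8.37% called lower over the whole table. Relative to the median of all tested probe sets, whose log2 fold moved from 0.04 as deposited to -0.01 after quantile normalization, Myom1 was lower in both.

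**Figure D2:**
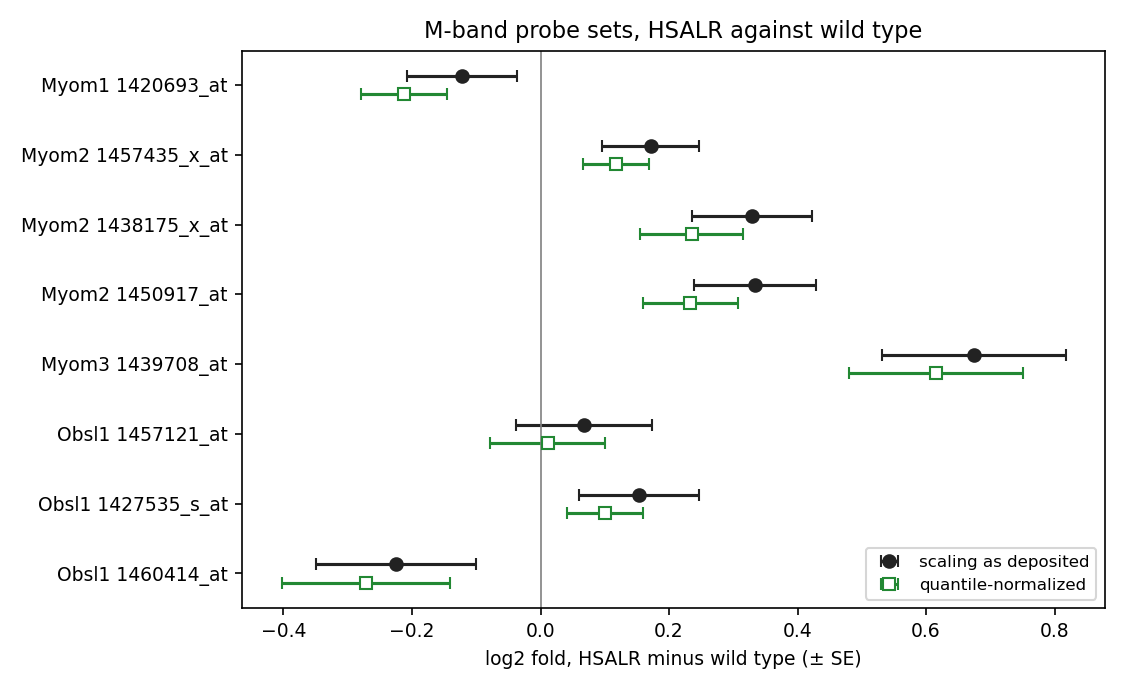
Log2 fold of HSALR minus wild type with its standard error for the 8 tested M-band probe sets, with the scaling as deposited (filled circles) and after quantile normalization (open squares), n = 10 against 9. Myom3 lies farthest to the right at 0.67 and 0.62, the Myom2 probe sets lie between 0.12 and 0.33, Myom1 lies left of 0 in both, and the Obsl1 probe sets lie on both sides of 0.

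A ratio of 2 probe sets within an array is unchanged when all signals of that array are multiplied by 1 factor. It shows unequal change without saying which member changed. The ratios below are of signals as deposited, and quantile normalization, which is not 1 factor per array, can alter them. The ratio of Myom2 (1450917_at) to Myom1 was 0.879, 0.88, 0.75, 0.918, 0.886, 0.925, 0.897, 0.898 and 0.899 in wild-type replicates 1 to 9. In HSALR replicates 1 to 10 it was 1.34, 1.28, 1.34, 1.18, 1.07, 1.08, 1.2, 1.26, 1.21 and 1.16. The groups did not overlap, a 1.37-fold shift of the ratio (log2 difference 0.46, with SDs of 0.09 and 0.11). The groups were likewise separate for 1438175_x_at, from 0.859 to 1.17 against 1.24 to 1.48, and for 1457435_x_at, from 1.6 to 1.81 against 1.88 to 2.28. Without HSALR replicates 9 and 10 the log2 differences of the 3 Myom2 ratios were 0.46, 0.46 and 0.28, and each stayed within 0.28 to 0.48 over all fits without 1 sample. These ratios were chosen after the values were seen and no test was made of them. As background, 1.12% of the other tested probe sets had a ratio to Myom1 with every HSALR sample above every wild-type sample, and 0.36% of tested probe sets were separate in this direction by their signals alone, none of them a member.

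The ratio of Myom3 to Myom1 was 0.0401 to 0.0653 (median 0.0535) in wild type and 0.0622 to 0.143 (median 0.0882) in HSALR, a 1.77-fold shift. Here 9 of 10 HSALR samples exceeded the wild-type maximum, and HSALR replicate 7 (0.0622) lay below the 2 highest wild-type samples. The ratio of Myom3 to Myom2 (1450917_at) overlapped more, from 0.0434 to 0.0766 against 0.0518 to 0.107, with 5 of 10 HSALR samples above all of wild type. Levels of different genes cannot be compared through these ratios, since each probe set has its own response.

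**Figure D3:**
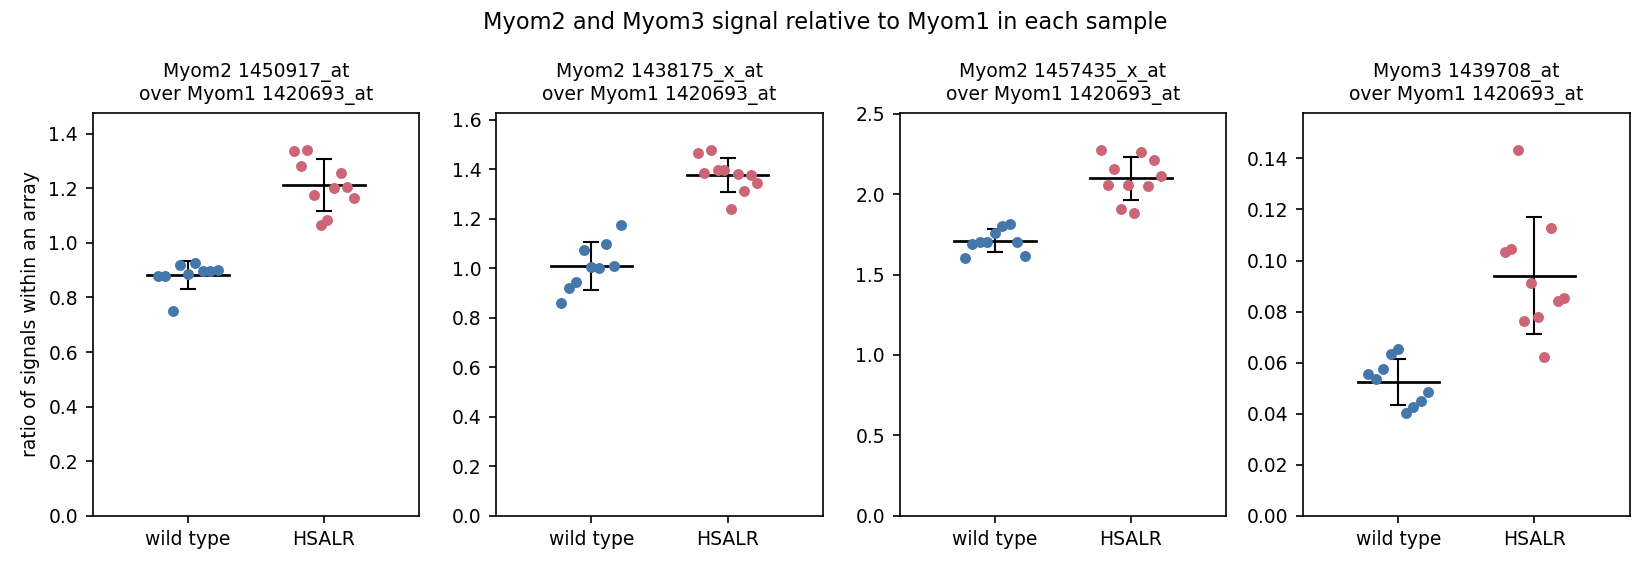
Ratio of the signals of Myom2 (3 probe sets) and Myom3 to that of Myom1 within each array (no unit, linear axis from 0), in 9 wild-type (blue) and 10 HSALR (red) samples; lines are means and bars are ±1 SD. In the 3 Myom2 panels all 10 HSALR points lie above all 9 wild-type points, and in the Myom3 panel 9 of 10 do.

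Obsl1, the adaptor between titin and myomesin, had 5 probe sets and none was called. The brightest, 1457121_at, ranged from 210 to 299 (median 245) in wild type and from 172 to 363 (median 263) in HSALR, with a log2 fold of 0.07 ± 0.11. The groups overlapped, with 2 HSALR samples above and 1 below all wild-type samples. For 1427535_s_at, whose suffix marks probes shared by several transcripts, the ranges were 162 to 205 (median 177) and 149 to 262 (median 208), and 5 of 10 HSALR samples exceeded the wild-type maximum while 1 was below the minimum (log2 fold 0.15 ± 0.09). The dimmer 1460414_at had a log2 fold of opposite sign, -0.23 ± 0.12, with signals of 49.0 to 94.5 in wild type and 35.6 to 78.6 in HSALR. The remaining 2 were under the filter: 1443510_at (medians 54.7 and 33.7) and 1436414_at (medians 17.4 and 16.9). Across samples the brightest Obsl1 probe set correlated at 0.40 with 1427535_s_at and at 0.07 with 1460414_at after the group means were taken off, which is less than among the Myom2 probe sets. The Obsl1 probe sets thus gave no common direction.

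Relations between the members within a group do not use the difference between the groups. Of 36 relations computed on quantile-normalized values (each pair of the 4 genes, and each gene with the myosin heavy chains Myh7, Myh2 and Myh4, in wild type and in HSALR), 2 passed a Benjamini-Hochberg adjusted p of 0.05. Myom1 and the brightest Obsl1 probe set, 1457121_at, varied together in HSALR (Pearson r = 0.89, permutation p = 0.00041, adjusted p = 0.0148, and Spearman rho = 0.92, permutation p = 0.00055, adjusted p = 0.0198, n = 10). The 2 samples farthest from the Myom1 median were HSALR replicates 9 and 10, and without them r was 0.90 (exact permutation p = 0.00312, n = 8, adjusted p = 0.113). In wild type the same relation had r = 0.20 (exact permutation p = 0.59, n = 9, adjusted p = 0.85) and rho = 0.27 (exact permutation p = 0.493), and the difference between the groups was not tested. Myom1 and Myom2 in HSALR had r = 0.86 (permutation p = 0.0024, adjusted p = 0.0432, n = 10) and rho = 0.76 (permutation p = 0.015, adjusted p = 0.243). Without replicates 9 and 10 r was 0.62 (exact permutation p = 0.107, n = 8), so for this brightest Myom2 probe set, 1457435_x_at, the relation rests on those samples. In wild type it had r = 0.64 (exact permutation p = 0.0518, n = 9, adjusted p = 0.266) and r = 0.22 without the 2 farthest samples. There rho was 0.55 (exact permutation p = 0.133, adjusted p = 0.597). Each tested probe set of Obsl1 and Myom2 was also set against Myom1 separately, 12 relations chosen after the values were seen. With the other Obsl1 probe sets the relation did not pass in HSALR: r was 0.45 for 1427535_s_at (rho = 0.41, permutation p = 0.198 and 0.247, n = 10, adjusted p = 0.297 and 0.423; r = 0.35 without the 2 farthest samples). For 1460414_at r was -0.06 (rho = 0.08, permutation p = 0.878 and 0.839, n = 10, adjusted p = 0.878 and 0.839; r = 0.25 without the 2 farthest samples). The relation of Myom1 and Obsl1 thus passed for 1 of the 3 tested Obsl1 probe sets. For Myom2 in HSALR, Pearson r among these 12 passed with each tested probe set. It was 0.86 for 1457435_x_at (adjusted p = 0.00968), 0.91 for 1438175_x_at (permutation p = 0.00029, adjusted p = 0.00258) and 0.79 for 1450917_at (permutation p = 0.00652, adjusted p = 0.0196). By Spearman's rho only 1438175_x_at passed (rho = 0.84, permutation p = 0.00358, adjusted p = 0.0215). Without replicates 9 and 10, r was 0.83 with 1438175_x_at and 0.43 with 1450917_at.

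**Figure D4:**
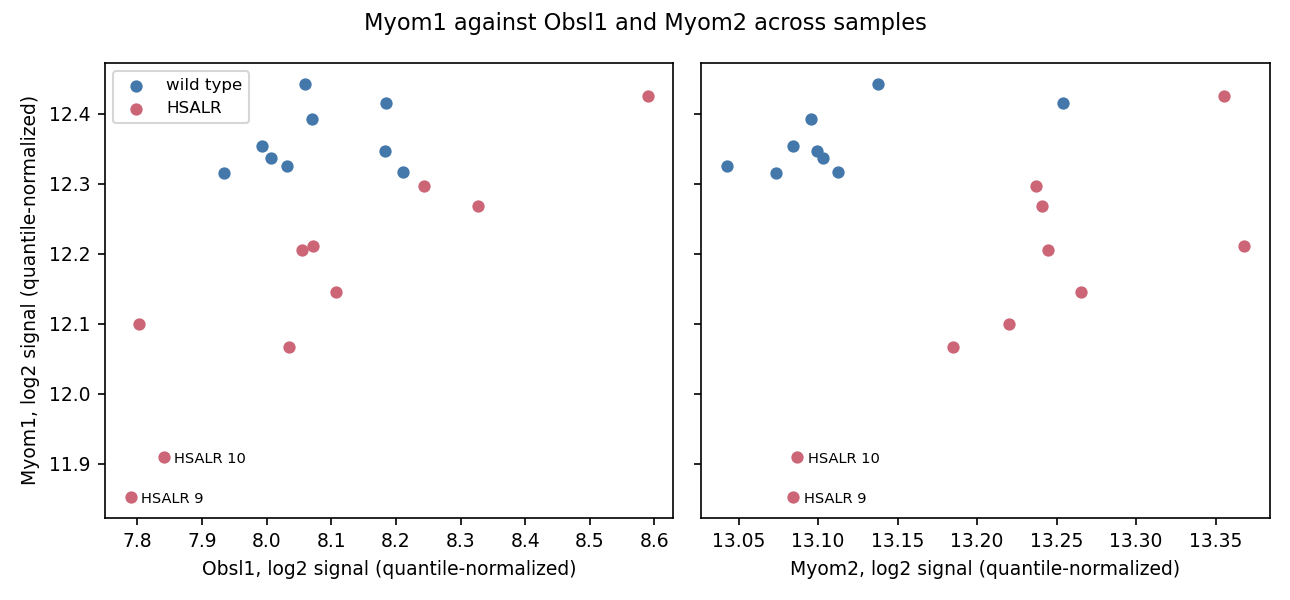
Quantile-normalized log2 signal of Myom1 (vertical axis) against that of Obsl1 (1457121_at, left) and Myom2 (1457435_x_at, right) in 9 wild-type (blue) and 10 HSALR (red) samples. HSALR replicates 9 and 10 have the lowest Myom1 values; the HSALR points rise together in the left panel also without them (r = 0.90), while in the right panel r falls from 0.86 to 0.62.

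The fibre type of the muscle was read beside Myom3 because of the fibres it is known from. Myh7, the slow myosin heavy chain, ranged from 7.45 to 12.12 (log2 signal) in wild type and from 6.56 to 11.25 in HSALR, so slow fibre transcripts varied widely between samples of both groups. Its log2 fold was -0.73 ± 0.66 (limma adjusted p = 0.574), and -0.22 without HSALR replicates 9 and 10. Of 10 slow fibre markers and 12 fast fibre markers, 0 were called in either list by limma (0 and 2 at an unadjusted p under 0.05), with 3 fast fibre markers lower after quantile normalization. The fast fibre markers also read near the top of the scale, which limits what change can be seen. The median log2 fold was -0.56 for the slow list and 0.002 for the fast list, beside 0.05 over all genes. After quantile normalization these medians were -0.62, -0.03 and -0.007. The lower median of the slow list was not tested. The summed signal of the slow fibre markers was 4285 to 34627 in wild type and 4595 to 20574 in HSALR. Myom3 and Myh7 had r = 0.43 in wild type (exact permutation p = 0.261, n = 9, adjusted p = 0.666; r = 0.55 without the 2 farthest samples) and r = 0.42 in HSALR (permutation p = 0.232, n = 10, adjusted p = 0.666; r = 0.39 without the 2 farthest samples). Spearman's rho was 0.33 (exact permutation p = 0.385) and 0.04 (permutation p = 0.919), and the HSALR r was -0.08 without replicates 9 and 10. Myom3 with Myh2, the heavy chain of fast oxidative fibres, had r = 0.36 (exact permutation p = 0.391, n = 9, adjusted p = 0.716; rho = 0.31, p = 0.415) in wild type and r = -0.09 (permutation p = 0.814, n = 10, adjusted p = 0.993; rho = -0.14, p = 0.708) in HSALR. Leaving out the 2 farthest samples gave r = 0.27 and r = -0.08.

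Markers of cells other than muscle fibres moved with the group in part. Of 10 macrophage markers, 9 were tested and Cd68, a lysosomal protein (log2 fold 1.00 ± 0.24, limma adjusted p = 0.0133), and the lectin Lgals3 (1.27 ± 0.35, 0.0347) rose, while 8 of the 9 passed an unadjusted p under 0.05, all with higher signals in HSALR. The summed macrophage signal was 3974 to 6830 in wild type and 3543 to 22472 in HSALR, where it reached 9579 without replicates 9 and 10; Itgam was under the filter. Of 9 fibroblast markers tested, the growth factor receptor Pdgfra rose (0.74 ± 0.20, limma adjusted p = 0.0276), a call lost without replicates 9 and 10 (0.53, 0.0735), and summed signals were 21140 to 38901 and 17753 to 77883, the latter up to 41388 without them; 2 of the 9 were higher at an unadjusted p under 0.05. Of 8 fat cell markers, 4 were tested and the hormone genes Adipoq (1.58 ± 0.41, limma adjusted p = 0.0237) and Retn (0.69 ± 0.16, 0.0146) rose, while Lep and Cidec were under the filter. At an unadjusted p under 0.05, 3 of the 4 were higher. The other tested marker, Lpl, named after its values were seen, went the opposite way and was not called (-0.10 ± 0.08, limma adjusted p = 0.499). For Lpl, 7 HSALR samples lay below all wild-type samples. Summed signals of the list were 14402 to 16171 and 12742 to 18358. Of 6 endothelial markers 0 were called by limma, also after quantile normalization and at an unadjusted p under 0.05, and summed signals were 1885 to 3254 and 2012 to 3190. Without replicates 9 and 10, Cd68 (0.76, limma adjusted p = 0.033), Lgals3 (0.79, 0.0297), Adipoq (1.54, 0.0453) and Retn (0.67, 0.0299) were still called higher. The part of these cells in the member values was not tested.

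Among the partners of the M-band proteins, few were called with the scaling as deposited and more after quantile normalization. Of 15 tested genes of the M-band and the elastic filament, 0 were called in limma as deposited (5 at an unadjusted p under 0.05, 2 higher and 3 lower), with a median log2 fold of -0.11 beside 0.05 over 11533 genes, of which 3.11% were called higher and 2.31% lower. Ttn, the titin gene, whose protein spans from Z-disc to M-band, differed by 0.02 ± 0.07 on the log2 scale (limma adjusted p = 0.928), and for Ckm, the creatine kinase bound at the M-band, it was 0.05 ± 0.07 (0.735). Ttn and Ckm read near the top of the scale (wild-type mean log2 signals of 13.67 and 13.56), which limits what change can be seen. After quantile normalization 0 rose and 6 of the 15 fell (3 called without HSALR replicates 9 and 10), beside 6.96% higher and 8.51% lower over all genes. Named after their values were seen, these were Ank1, an ankyrin gene with a small muscle form (log2 fold -0.41 ± 0.10, limma adjusted p = 0.0122), the myosin chaperone Unc45b (-0.27 ± 0.08, 0.0223) and Trim54, a MuRF ubiquitin ligase of the sarcomere (-0.26 ± 0.07, 0.0196). Cul3 (-0.25 ± 0.07, 0.0226), a ubiquitin ligase scaffold, and the autophagy receptors Sqstm1 (-0.23 ± 0.07, 0.0371) and Nbr1 (-0.19 ± 0.06, 0.0365), which act with the titin kinase, were the others. As deposited their log2 folds were -0.13 to -0.34 and did not pass.

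Of the 3M complex partners of Obsl1, 4 of 5 were tested and 0 were called by limma, as deposited or after quantile normalization, and 1 passed an unadjusted p under 0.05, higher in HSALR. Another list, with 10 tested genes, held other sarcomeric proteins with immunoglobulin domains, the family to which the myomesins belong, and related genes. In it Mybph, a myosin-binding protein, rose 10.8-fold (log2 fold 3.43 ± 0.31, limma adjusted p = 2.05e-07), and 0 fell. After quantile normalization Mybpc2, a fast myosin-binding protein (-0.17 ± 0.05, limma adjusted p = 0.0383), and Mylk (-0.27 ± 0.08, 0.0327) fell. Mylk is the gene of the smooth muscle myosin kinase and is not itself a sarcomeric gene. For Mybph the 10 HSALR samples were all above the wild-type maximum. The median log2 fold of this list was -0.04. Of 11 thick filament myosins, Myh7b fell (-0.53 ± 0.15, limma adjusted p = 0.0393), a call lost without HSALR replicates 9 and 10 (limma adjusted p = 0.0762), and 0 rose. For the fast heavy chain Myh2 the log2 fold was -0.01 ± 0.10 (limma adjusted p = 0.967). That of Myh4, another fast chain, was 0.01 ± 0.07 (limma adjusted p = 0.945) and turned to -0.02 after quantile normalization. Myh2 and Myh4 also read near the top of the scale, which limits what change can be seen.

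**Figure D5:**
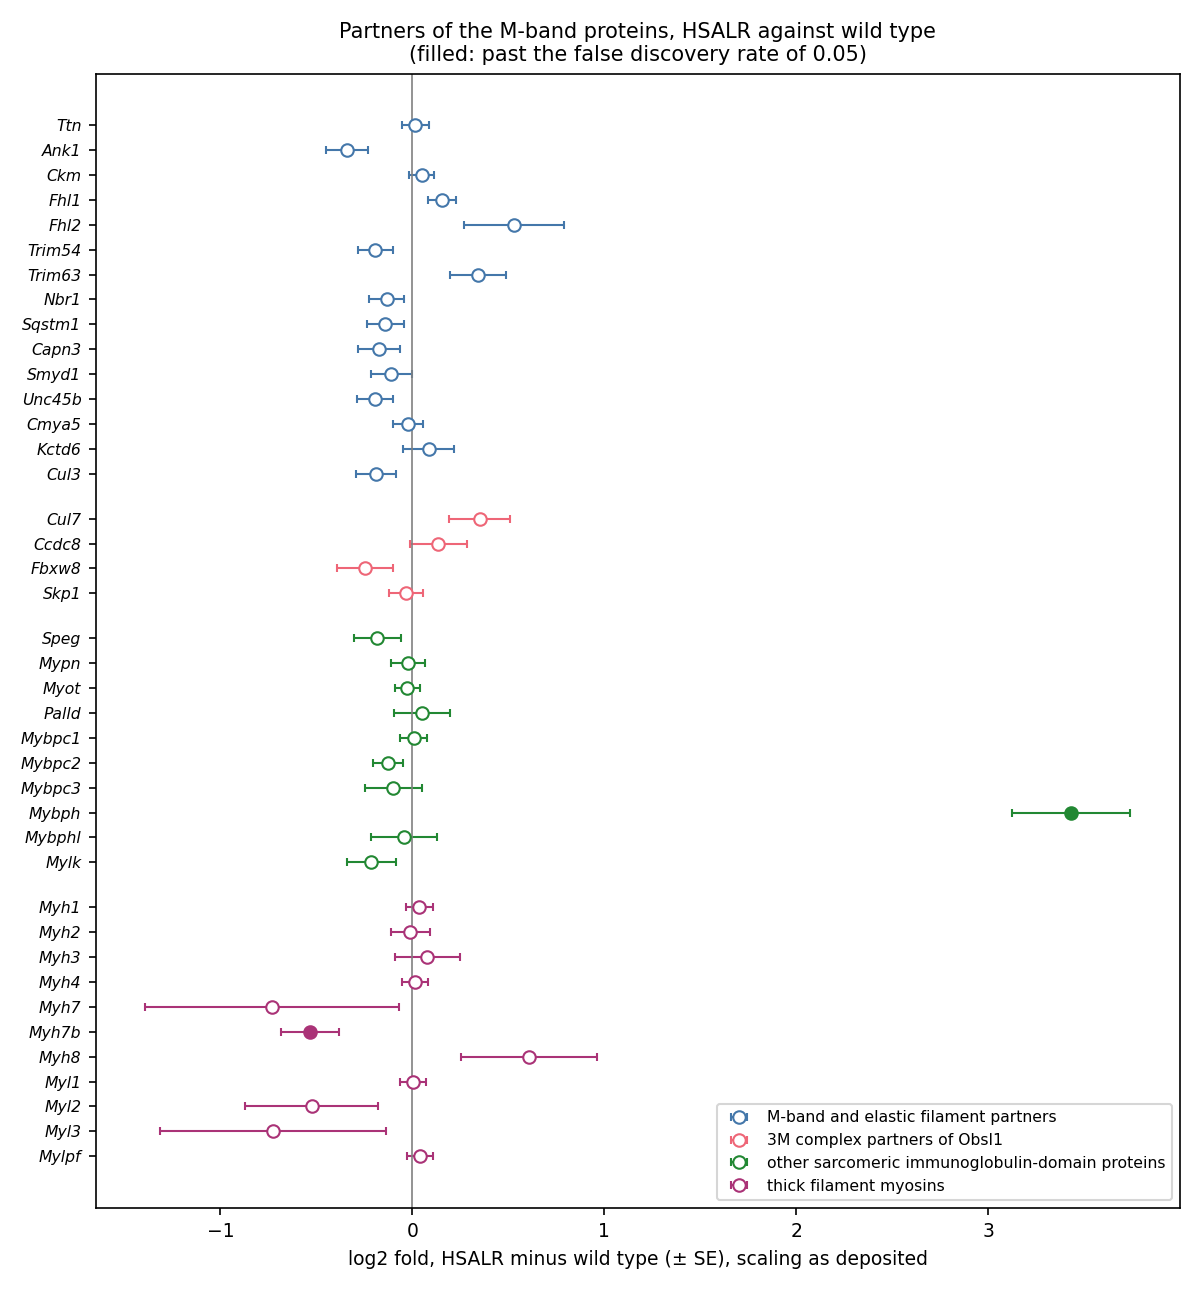
Log2 fold of HSALR minus wild type with its standard error (n = 10 against 9, scaling as deposited) for the tested genes of 4 lists: M-band and elastic filament partners, 3M complex partners, other sarcomeric immunoglobulin-domain proteins and thick filament myosins. Filled points passed a false discovery rate of 0.05: Mybph at 3.43 and Myh7b at -0.53; the slow genes Myh7, Myl2 and Myl3 have the widest errors on the left.

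The genes whose pattern across the 19 samples was most like that of each member were found among 11533 genes by correlation of quantile-normalized values after the group means were taken off, as a description. All of these samples share the normalization and HSALR replicates 9 and 10. Most like Myom1 were Klhl12, an adaptor of a cullin ubiquitin ligase (r = 0.94), the kinase gene Lmtk2 (0.93), the mitochondrial fusion gene Mfn1 (0.91), the repressor gene Zbtb18 (0.89) and Fahd1 (0.89), beside a median of 0.15 over all genes. Most like Myom3 were the ubiquitin ligase gene Rnf115 (0.86), Tshb (0.84), the gene of the actin cross-linker filamin C, Flnc (0.84), the kinetochore gene Spc25 (0.83) and Rrp12 (0.83), beside a median of 0.06. Flnc and Rnf115 were themselves called higher in HSALR, with log2 folds of 0.84 and 0.77. Most like Myom2 were Rhbdl1 (0.90), the ubiquitin ligase gene Ubr1 (0.89), Wdr12 (0.88), the deubiquitinase gene Cyld (0.87) and Prkar2a (0.85). Most like Obsl1 were Sptb, the gene of a spectrin (0.89), Gnpat (0.88), Satb1 (0.87), Rragd (0.86) and 4933434E20Rik (0.85). Of these 20 pairs, 8 were also among the 5 most alike with the scaling as deposited and 9 without HSALR replicates 9 and 10, so the lists depend on both choices. By gene, 0 of 5 for Myom3 were kept without those replicates, Flnc and Rnf115 among the lost, and 0 of 5 for Myom2 with the scaling as deposited.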

How the data were processed

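The authors deposited signal intensities on a linear scale for 45101 probe sets on 19 arrays (software per the submitters' processing notes: GCOS 1.4). Algorithm and scaling target: not given in the sources used here. Per the labels' protocols, total RNA was labelled with biotin, 1 array per sample. After leaving out 64 control probe sets, values were used as log2(value + 16), and 22519 probe sets with a mean log2 at or above the median (6.09) were tested. HSALR and wild type were compared with limma 3.58.1 in R 4.3.3 (lmFit, eBayes, 2-sided), with Benjamini-Hochberg adjustment over all tested probe sets and a false discovery rate of 0.05. Genes were named from platform annotation with 1 symbol, updated through Entrez identifiers, and a gene outside the members was read through its brightest probe set. Members under the filter were fitted in the unfiltered table. Relations within groups used exact permutations (9 or fewer samples) or 100000 draws (10 samples), in Python 3.11.15. The members, gene lists and alternatives were chosen with earlier results of these data known. Genes were named by a fixed rule: all member probe sets, up to 5 called genes per partner list, Ttn, Ckm, Myh7, Myh2 and Myh4, the 5 genes most like each member and up to 2 called genes per marker list; other genes (such as all 6 quantile-normalized partner calls and markers under the filter) were named after their values were seen, and 1 gene of the rule is not reported here. Fits were tested on simulated data. The number of arrays limits the precision.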

Additional observations from a re-analysis of the deposited data

Results flagged for a closer look

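Of 22 sets of values (11 member probe sets in 2 groups), 3 held a sample that stood apart from the others by Dixon's criterion, which chance meets in about 1 of 20 sets. For Myom2 1457435_x_at, wild-type replicate 6 had a signal of 10376, above the next highest of 8911. For the dim Obsl1 probe set 1436414_at, HSALR replicate 4 had 71.2, next to 25.0, and wild-type replicate 2 had 64.1, next to 20.0. The causes were not tested.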

How the results depend on the processing

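The direction of the 8 tested member probe sets was kept in all settings run; the call was also kept for Myom3, on the samples it was chosen from, and not for Myom2 and Myom1. Beside 3 member probe sets called, 1 was called without a filter, with a 3'/5' covariate and with the replicate block, and 1 to 3 in fits without 1 sample. With arrays centred on their median 2 were called, and without HSALR replicates 9 and 10 after quantile normalization 4. Over the whole table, beside 1140 called, 3342 were called after quantile normalization, 2345 with arrays centred on their median, 2169 with the covariate, 2468 without HSALR replicates 9 and 10 after quantile normalization, 858 to 2067 without 1 sample (2067 without HSALR replicate 5) and 716 with the replicate block. Of called probe sets 56.6% were higher as deposited, 43.6% after quantile normalization, 44.8% with centring and 78.6% with the covariate. Beside 2 partner genes called, there were 1 without a filter, 10 after quantile normalization, 4 with centring, 4 with the covariate, 1 without HSALR replicates 9 and 10, 6 without them after quantile normalization and 1 to 3 without 1 sample. Beside 2 relations past the threshold, there were 9 with the scaling as deposited, where array brightness is shared, 0 without the 2 farthest samples and 0 without HSALR replicates 9 and 10, both with fewer samples. Beside 20 named likenesses, 8 and 9 were kept. Among member probe sets, signs turned at those under the filter: Myom2 1438372_at (-0.010 with the covariate) and Obsl1 1436414_at (-0.013 with centring, -0.31 with the covariate, -0.11 to 0.18 without 1 sample). Of 84 tested list genes, 9 turned sign after quantile normalization, none called. Sample numbers did not pair the samples: of 9 pairs, 3 had correlated deviations over 0.1 and 1 correlated best with its own number; with the replicate block both Myom2 calls were lost (0.34 for 1438175_x_at, 0.35 for 1450917_at). Other causes were not tested. Dim probe sets and signals near the top of the scale limit what can be seen.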
